A study of Mus musculus with 30 samples.

Results

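The genes described here encode the subunits of the respiratory chain and ATP synthase that are carried in the nucleus. They were chosen by name, from symbols beginning Nduf (a, b, c, s or v with a number), Sdha to Sdhd, Uqcr, Cox4 to Cox8 and Atp5, with at least 1 protein-coding transcript and a position on an autosome or the X chromosome. The choice was made with earlier results of these data known. The rule found 84 of the 42439 gene identifiers in the count tables, and 21806 of those identifiers are protein-coding genes on the same chromosomes. Complex I (NADH dehydrogenase) has 37 of the 84 genes, complex II (succinate dehydrogenase) 4, complex III (the cytochrome bc1 complex) 8, complex IV (cytochrome c oxidase) 18 and ATP synthase, often called complex V, 17. The symbols set the grouping, so Ndufa4 stands under complex I although its protein is now assigned to complex IV. A further 3 Atp5l pseudogenes match by name and have no protein-coding transcript.

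Neural retinas of Abca4-/-Rdh8-/- mice were profiled by stranded poly(A) RNA sequencing in 10 groups of 3 libraries, with both genes deleted in every group, controls included. Abca4 and Rdh8 act in the clearance of all-trans-retinal, and bright light damages photoreceptors in mice that lack them. Per the labels the mice were males and females on C57BL/6J, 4 to 6 weeks old, kept under at most 10 lux for 12 h a day. Exposed mice received 10000 lux of white light for 30 min, and the retina was taken 1 day later. Injections were intraperitoneal and came 30 min before the exposure. The mixture experiment had mice given DMSO (the vehicle) without bright light, mice exposed to light after DMSO, and exposed mice given BMT (bromocriptine, metoprolol and tamsulosin) or MDB (metoprolol, doxazosin and bromocriptine). A separate single-drug experiment had its own 2 DMSO groups, unexposed and exposed, and exposed mice given bromocriptine (BRM), metoprolol (MTP), tamsulosin (TAM) or doxazosin (DOX). Metoprolol is a beta-1 blocker, doxazosin and tamsulosin are alpha-1 blockers, and bromocriptine activates the D2 receptor of dopamine. No group received a drug without light. The labels do not say whether the 3 libraries of a group came from different animals, so p-values measure the spread between libraries, which may be technical.

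The respiratory chain sits in the inner mitochondrial membrane. Complexes I and II pass electrons from NADH and succinate to ubiquinone, complex III hands them to cytochrome c, and complex IV reduces oxygen, while complexes I, III and IV pump the protons that ATP synthase uses to make ATP. Most subunits are nuclear-encoded, a few core ones are made in the mitochondrion itself, and many of the rest are small accessory proteins around the catalytic core. In the retina the chain is best known from photoreceptors, whose inner segments are packed with mitochondria that supply the ion pumps of the dark current. Transcription factors known for binding promoters of these genes include NRF1, ETS factors such as GABPA, YY1 and the estrogen-related receptors (ERR).

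Promoter sequences from RefSeq (assembly GRCm38.p6) were matched by symbol for 69 of the 84 genes. The 5 stretches below are the 150 bases just upstream of the RefSeq start, 5′ to 3′ on the gene's own strand. The first 3 belong to genes lower after light in both experiments, and the other 2 to small subunits of high GC content that moved with BRM or DOX. Capitals mark a match to the NRF1 palindrome, which is the motif GCGCATG overlapping its own reverse complement, or to the ETS motif ACTTCCG read on the opposite strand.
Cox7a2l, chr17:83514334-83514483, minus strand: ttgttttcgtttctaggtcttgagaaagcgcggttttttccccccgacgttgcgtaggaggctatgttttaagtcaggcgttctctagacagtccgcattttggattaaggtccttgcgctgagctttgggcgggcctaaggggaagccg
Ndufa10, chr1:92473759-92473908, minus strand: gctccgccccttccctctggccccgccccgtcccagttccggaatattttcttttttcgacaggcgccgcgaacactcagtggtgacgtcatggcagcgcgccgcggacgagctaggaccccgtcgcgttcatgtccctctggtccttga
Atp5b, chr10:128083157-128083306, plus strand: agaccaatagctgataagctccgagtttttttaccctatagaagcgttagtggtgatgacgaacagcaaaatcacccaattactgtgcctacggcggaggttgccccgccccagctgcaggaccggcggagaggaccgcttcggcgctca
Ndufa11, chr17:56717612-56717761, plus strand: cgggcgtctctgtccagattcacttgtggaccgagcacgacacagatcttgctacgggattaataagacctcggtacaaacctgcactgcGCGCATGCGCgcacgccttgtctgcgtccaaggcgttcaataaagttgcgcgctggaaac
Uqcr11, chr10:80406822-80406971, minus strand: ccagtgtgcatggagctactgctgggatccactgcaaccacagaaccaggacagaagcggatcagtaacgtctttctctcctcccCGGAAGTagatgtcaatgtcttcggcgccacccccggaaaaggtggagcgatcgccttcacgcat

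In windows of 300 bases (250 before and 50 after the start, both strands), the NRF1 palindrome was present in 5 of the 69 subunit promoters (7.25%) and in 1.47% of 17492 protein-coding promoters. Those 5 belong to Atp5g2, Atp5k, Cox6a1, Ndufa11 and Uqcrc1. The shorter motif GCGCATG, which the palindrome holds on both strands, was found in 13 subunit promoters (18.8% against 5.4%). The ETS motif was in 10 (14.5% against 9.39%), the YY1 motif AAGATGGC in 11 (15.9% against 3.57%) and the ERR motif TCAAGGTCA in 2 (2.9% against 0.377%), those of Atp5g3 and Sdhd. Among the 13 promoters of genes lower after light in at least 1 experiment, 1 held the palindrome, 2 the shorter motif, 2 the ETS motif, 2 the YY1 motif and none the ERR motif. A match is a run of letters and not a measured binding site.

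Levels between genes are compared per length, as the deposited FPKM (fragments per kilobase of transcript, scaled to the library) summed over a gene's transcripts. Without bright light, the order of the genes on the FPKM scale was led by the same 4 genes in both experiments, whose tables were made separately. Ndufa4 was highest at 1020 ± 202 FPKM (SD, n = 3) in the mixture experiment and 942 ± 99.2 in the single-drug experiment. Atp5b, the catalytic beta subunit of ATP synthase, followed at 668 ± 50.2 and 653 ± 16.1 FPKM. The next genes, Cox6c (393 and 379 FPKM) and Uqcrh (394 and 355 FPKM), did not differ from each other beyond their spread. Complex medians in the mixture experiment were 83.7 FPKM for complex I, 66.5 for complex II, 109 for complex III, 155 for complex IV and 189 for ATP synthase, and in the single-drug experiment 80.7, 62.6, 102, 147 and 188. All 4 complex II genes lay between 44.0 (Sdhb) and 124 FPKM (Sdha) in the mixture experiment.

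**Figure D1:**
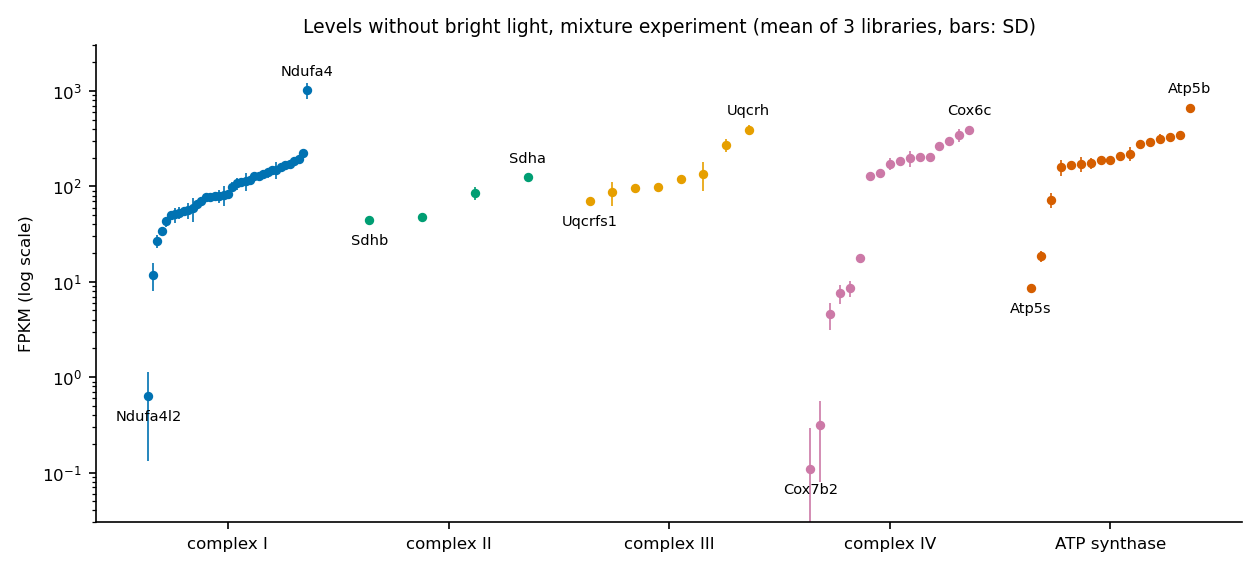
FPKM (log axis) of each subunit gene without bright light in the mixture experiment, grouped by complex and ordered by level, with the mean of 3 libraries as a point and the SD as a bar; Cox8c, at 0, is not drawn. Ndufa4 (1020 FPKM) and Atp5b (668 FPKM) stand above the rest, and the alternative isoforms of complex IV lie well below its other subunits.

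The alternative or tissue-restricted isoforms were low in this tissue. In counts per 1000000 (CPM), Cox4i2, the isoform of Cox4i1 known from lung, ranged from 8.08 to 13.4 over the 30 libraries, while Cox4i1 itself had 152 to 228 CPM in the unexposed and light groups. Cox8b ranged from 1.41 to 9.68 CPM, Cox6b2 (known from testis) from 1.8 to 6.79, Cox7a1 (known from heart and skeletal muscle) from 0.508 to 2.21 and Ndufa4l2 (a hypoxia-induced paralog of Ndufa4) from 0.221 to 2.02. Cox6a2, the muscle isoform of Cox6a1, reached at most 0.553 CPM and was at 0 in 2 libraries. Cox7b2 reached at most 0.148 CPM, and Cox8c had no count in any library. Cox7b2 and Cox8c did not pass the filter on low counts in either experiment, and Cox6a2 did not in the single-drug experiment, which left 82 and 81 of the 84 genes for testing. Of the 6 isoforms tested, the smallest adjusted p in any comparison (edgeR) was that of Cox4i2 with light in the single-drug experiment, at 0.101 (unadjusted p = 0.0311).

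Library totals were 18.5 to 25.8 M expected counts in the mixture experiment and 12.0 to 22.2 M in the single-drug experiment. The 84 genes together took 0.954% ± 0.0473 (SD, n = 3) of the counts without light and 0.931% ± 0.0068 after light in the mixture experiment, and 0.912% ± 0.0206 and 0.923% ± 0.0452 in the single-drug experiment. Rod photoreceptor markers moved with the exposure. Their summed level in the mixture experiment fell from 80900 to 96400 CPM without light to 46200 to 56400 CPM with it, and from 90000 to 97900 CPM to 30400 to 41700 CPM in the single-drug experiment, with 13 and 15 of 15 rod genes lower. With any drug the summed rod level was between 63600 and 103000 CPM. Cone markers fell as well, from 1340 to 1450 CPM without light to 567 to 774 CPM with it in the mixture experiment and from 1430 to 1550 CPM to 429 to 580 CPM in the single-drug experiment, with 5 and 6 of 7 genes lower. Mueller glia markers summed to 2230 to 3390 CPM without light and 1710 to 1780 CPM after it, and to 2610 to 2950 and 2230 to 2400 CPM, with 2 and 1 of 8 genes lower and 1 higher in each experiment. The sum of the endothelial markers was higher after light, at 171 to 215 CPM against 85.9 to 90.1 and 181 to 300 CPM against 76 to 118, with 1 of 5 genes higher in each experiment, and most of it was Kdr (65.6 to 287 CPM across libraries, where none of the other 4 passed 6.51 CPM). The part that these shifts had in the results below was not tested, and in whole retina a smaller number of photoreceptors and less RNA per photoreceptor cannot be told apart. Lens fibre genes, whose tissue lies next to the retina, summed to between 21.8 and 8070 CPM across libraries, from 183 to 7890 CPM in the unexposed libraries of the mixture experiment alone.

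The first question was what bright light did to the subunit genes. Each library is compared within its experiment, with a gene called at an adjusted p under 0.05 in edgeR's quasi-likelihood test over all genes. In the mixture experiment light lowered 6 of 82 subunit genes (7.32%) and raised none, where 5.47% of all 16007 genes tested were lower and 7.75% were higher. In the single-drug experiment it lowered 15 of 81 (18.5%) and again raised none, where 12.6% of 16249 genes were lower and 11.4% were higher. In the mixture experiment the share of lowered members was near that of all genes, so the count by itself says little, while in both experiments the members leaned to one side. At an unadjusted p under 0.05 there were 24 members in the first and 27 in the second (26.4% and 35.3% of all genes). All libraries of 31 and 21 members were lower after light than without it, as for 13.7% and 20.1% of all genes. The shifts were small. The median log2 fold change of the members was -0.13 in the mixture experiment and -0.17 in the single-drug experiment, with 0.0069 and 0.018 over all genes. Below 0 lay 65 of 82 members (79.3%; 49.0% of all genes) and 66 of 81 members (81.5%; 48.1% of all genes). The median standard error of the members was 0.10 and 0.11, against 0.14 and 0.16 over all genes. These fold changes rest on TMM-scaled library sizes. As a share of unscaled counts, the members went from 0.954% ± 0.0473 without light to 0.931% ± 0.0068 after it in the mixture experiment. In the single-drug experiment that share was 0.912% ± 0.0206 and 0.923% ± 0.0452 (SD, n = 3), so it did not fall. The part of the scaling in the lean was not tested.

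Both experiments, which share no library, called 5 of the members lower. Among them are Cox7a2l, Ndufa10, Ndufb8 and Atp5b, and 16 members were lower in at least 1 of the experiments. How many of all genes were called lower in both experiments, or in at least 1, is not reported here. These counts of calls are therefore not read as particular to the members. Of 81 members tested in both, 54 (66.7%) were below 0 in both, against 31.2% of all genes, while 4 were above 0 in both and 23 changed sign. Beyond that common sign, no linear relation of the fold changes was seen over the members, which include isoforms of low counts such as Cox8b. The log2 fold changes of the 81 members had a Pearson correlation of -0.04 between the experiments, while those of 15868 genes had one of 0.526 (both are descriptions across genes, which are not independent).

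**Figure D2:**
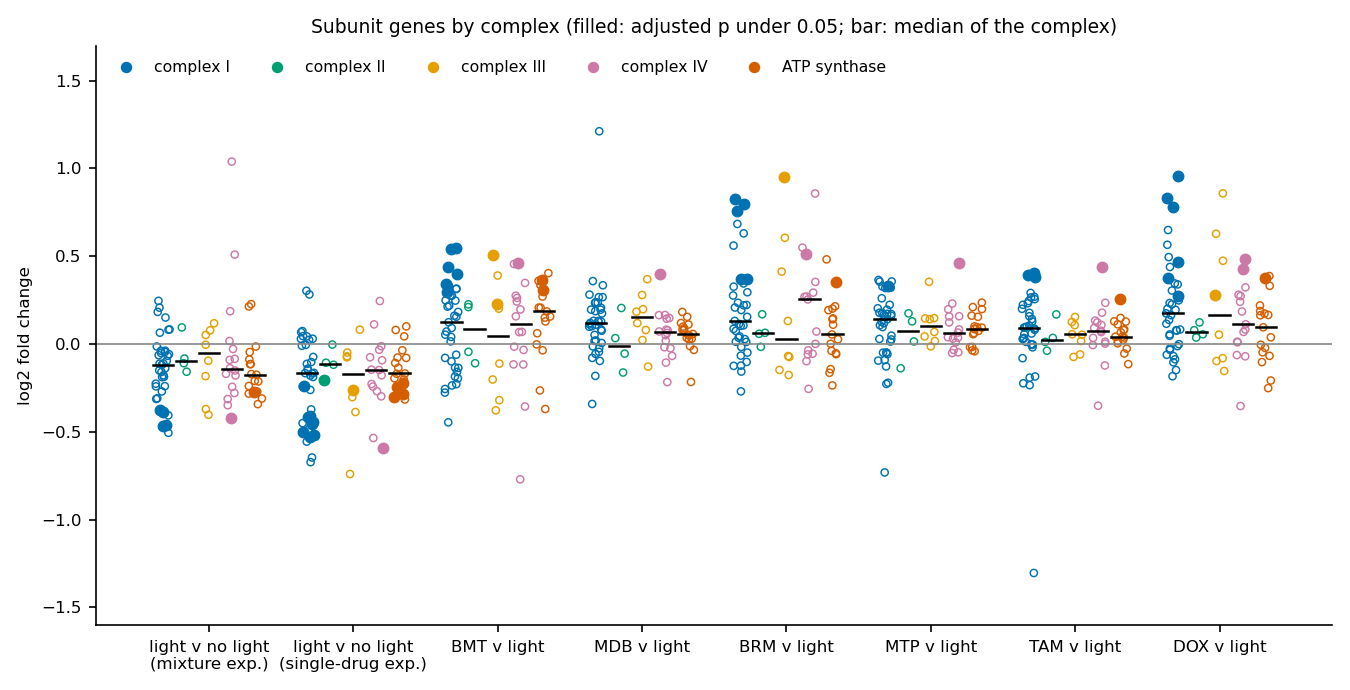
Log2 fold change of every tested subunit gene in the 2 light and 6 drug comparisons, coloured by complex, with filled points at an adjusted p under 0.05 and bars at the median of each complex. All filled points lie below 0 for light (6 and 15 genes) and above 0 for every drug (11, 1, 8, 2, 5 and 10 genes).

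Cox7a2l, a relative of the Cox7a subunits that is known as an assembly factor of supercomplexes of complexes III and IV (ENSMUSG00000024248, chr17:83501919-83514333, GRCm38.p3), had the smallest adjusted p of the members in each of the 8 comparisons of light or drug. Without light its CPM was 136, 143 and 141 in the mixture experiment, and after light 100, 102 and 111. It was, in the single-drug experiment, 148, 137 and 148 without light and 94.2, 90.6 and 102 after light. Every exposed library lay below every unexposed one. The log2 fold change was -0.42 ± 0.07 (SE; adjusted p = 0.00287, edgeR) and -0.59 ± 0.08 (adjusted p = 0.000181), and the gene was called under all 9 alternative settings and with any single library left out.

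By complex, the median log2 fold change with light was -0.12 for complex I, -0.10 for complex II, -0.05 for complex III, -0.14 for complex IV and -0.17 for ATP synthase in the mixture experiment, and -0.17, -0.11, -0.17, -0.15 and -0.17 in the single-drug experiment. Complex I held 4 of the 6 genes lowered in the mixture experiment (of 37 tested) and 8 of the 15 in the single-drug experiment. Ndufa10 (ENSMUSG00000026260, chr1:92439010-92473860), an accessory subunit of the membrane arm, had 134, 106 and 116 CPM without light and 79.5, 87.4 and 91.3 after light in the mixture experiment. The single-drug experiment gave 125, 125 and 132 CPM without light and 88.2, 90.1 and 91.5 after light. The groups did not overlap in either experiment, with log2 fold changes of -0.46 ± 0.10 (adjusted p = 0.00924) and -0.50 ± 0.08 (adjusted p = 0.000709). Counted over protein-coding transcripts alone, Ndufa10 went from 85.0 to 66.1 CPM in the mixture experiment, where its call was then lost, and from 101 to 60.2 CPM in the single-drug experiment, where it was kept. Ndufb8 (ENSMUSG00000025204, chr19:44548572-44555440), an accessory subunit widely used as a marker of assembled complex I, had 116, 104 and 110 CPM without light and 82.0, 81.5 and 90.6 after it in the mixture experiment. The unexposed libraries of the single-drug experiment had 99.4, 98.3 and 111 CPM and the exposed ones 75.6, 68.6 and 86.8. Its groups were again apart, at -0.38 ± 0.09 (adjusted p = 0.018) and -0.42 ± 0.10 (adjusted p = 0.00628).

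Ndufs3 (ENSMUSG00000005510, chr2:90894634-90904827), a core subunit of the peripheral arm of complex I, had 72.5, 60 and 63.2 CPM without light and 45.4, 48.3 and 55.9 after it in the mixture experiment, where it was called (-0.39 ± 0.10, adjusted p = 0.0283). The single-drug experiment had 62.4, 56.7 and 62.8 CPM without light and 55.4, 52.8 and 53.9 after it. Ndufs3 was not called there, although the libraries of the 2 groups did not overlap.

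Ndufv1, the flavoprotein that accepts electrons from NADH, was called only in the single-drug experiment. Its CPM there was 111, 113 and 107 without light and 73.0, 67.2 and 89.7 after light (-0.53 ± 0.12, adjusted p = 0.00447). The mixture experiment gave 97.6, 112 and 112 CPM without light and 102, 96.9 and 93.1 after light, so that the groups overlapped (-0.14, adjusted p = 0.246). Tested across the experiments, the light effects differed by -0.39 ± 0.15 with an unadjusted p of 0.0129 and an adjusted p of 0.203 (edgeR). Ndufs1, the large iron-sulfur subunit of the same module, was at 125 CPM in both groups of the single-drug experiment (adjusted p = 0.978) and at -0.19 in the mixture experiment (adjusted p = 0.264). The other complex I genes lowered in the single-drug experiment were Ndufb11 (91.3 against 121 CPM; adjusted p = 0.00783), Ndufb9 (83.7 against 98.9 CPM; adjusted p = 0.0122), Ndufa4 (332 against 451 CPM; adjusted p = 0.0124) and Ndufs8 (27.8 against 38.0 CPM; adjusted p = 0.034).

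Complex II has no accessory subunits, and its genes moved little. Sdha, the flavoprotein that oxidizes succinate, had 337, 337 and 374 CPM without light and 304, 303 and 304 after light in the single-drug experiment, where it was called (-0.20 ± 0.06, adjusted p = 0.0333). The mixture experiment gave 349, 312 and 334 CPM without light and 294, 298 and 301 after light, again without overlap, and was not called (-0.16, adjusted p = 0.204). Sdhb, the iron-sulfur subunit, was not called in either (0.09 with adjusted p = 0.483, and -0.003 with adjusted p = 0.989). In complex III, Uqcrc1, a core subunit of the matrix side, had 149, 156 and 150 CPM without light and 125, 116 and 138 after it in the single-drug experiment (-0.26 ± 0.08, adjusted p = 0.0245). Both of its groups were at 150 CPM in the mixture experiment (adjusted p = 0.973), and the difference between the light effects had an unadjusted p of 0.0113 and an adjusted p of 0.193. Uqcrfs1, the Rieske iron-sulfur protein, was not called (-0.18 with adjusted p = 0.092, and -0.07 with adjusted p = 0.463).

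Of the genes that their symbols place in complex IV, which leaves out Ndufa4, Cox7a2l was the 1 gene lowered in either experiment. Cox4i1, a nuclear subunit that joins the complex early, was at -0.08 (adjusted p = 0.485) and -0.23 (adjusted p = 0.143). Cox5a, with which it assembles early, had 131, 103 and 104 CPM without light and 83.7, 93.7 and 88.3 after light in the mixture experiment. Its libraries did not overlap there, and it was not called (-0.35 ± 0.12, adjusted p = 0.0807). Cox5a was in the single-drug experiment at -0.08 (adjusted p = 0.526).

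ATP synthase held 1 gene lowered in the mixture experiment and 4 in the single-drug experiment. Atp5b (ENSMUSG00000025393, chr10:128083273-128090391) had 1230, 1090 and 1220 CPM without light and 937, 982 and 1020 after it in the mixture experiment, and 1190, 1160 and 1240 CPM against 972, 953 and 1020 in the single-drug experiment. All exposed libraries were below all unexposed ones, at -0.27 ± 0.08 (adjusted p = 0.0485) and -0.28 ± 0.08 (adjusted p = 0.0133). The call in the mixture experiment was near the threshold and was kept in 5 of 9 alternative settings and in 3 of 12 fits with a library left out. Atp5a1, the alpha subunit of the same catalytic head, was lower in the single-drug experiment (563 against 666 CPM; adjusted p = 0.0257) and at -0.17 in the mixture experiment (adjusted p = 0.101). Atp5o, part of the peripheral stalk, and Atp5sl, named after a similar protein and not itself a structural subunit, were called in the single-drug experiment at -0.22 (adjusted p = 0.0372) and -0.30 (adjusted p = 0.0435), each with overlapping libraries. The call of Atp5sl was kept in 4 of 9 alternative settings and in 7 of 18 fits with a library left out. That of Atp5o was kept in 7 of 9 settings and in 14 of 18 such fits.

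**Figure D3:**
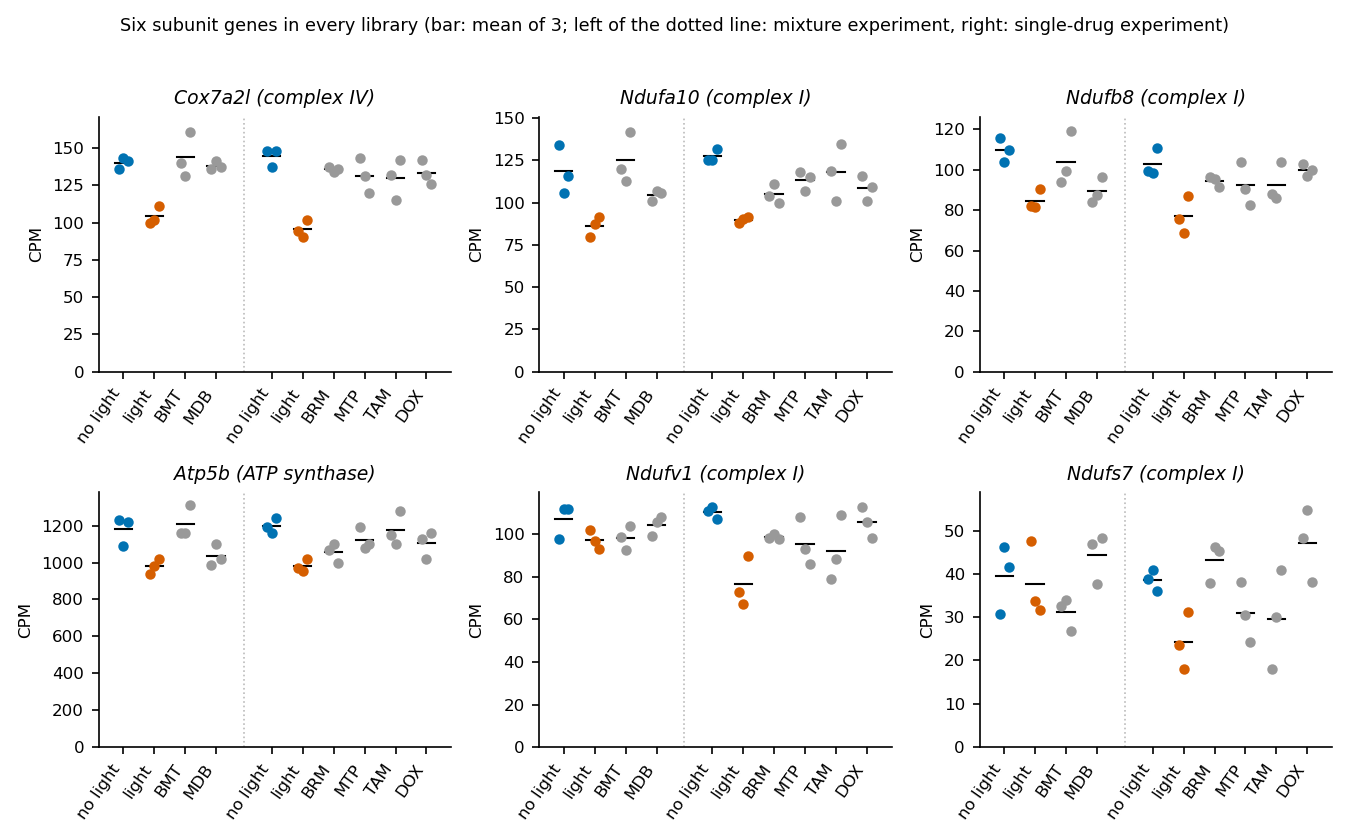
CPM of 6 subunit genes in each of the 30 libraries, with bars at the mean of 3 libraries; the mixture experiment is left of the dotted line and the single-drug experiment right of it. Cox7a2l, Ndufa10, Ndufb8 and Atp5b are lower after light in both experiments, whereas Ndufv1 and Ndufs7 overlap between light (93.1 to 102 and 31.7 to 47.7 CPM) and no light in the mixture experiment.

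Single libraries weighed on these counts. The numbers of all genes called with light in the same fits are not reported here, so members and whole comparison cannot be told apart. In the mixture experiment the number of lowered genes was 1 without light replicate 1, 2 without light replicate 2, 3 without no light replicate 1 or no light replicate 3, 13 without BMT replicate 3 and 14 without no light replicate 2. By setting, the first count was 13 with DESeq2, 18 with a lens-fibre score as covariate, and 3 with protein-coding transcripts alone or the deposited FPKM. For the single-drug experiment it was 8 without light replicate 2, 23 without light replicate 3 and 7 without no light replicate 3. Across the experiments, a test of how far the light effects differed called 0 of 82 members and 0 of 16645 genes in edgeR. At an unadjusted p under 0.05 it held 8 members and 15.1% of all genes, and DESeq2 called 410 genes and no member.

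A fit of single transcripts, chosen after seeing the data, asked which forms of these genes carried the calls. Of the 83 members with counts, the median share on coding transcripts was 99.3%, with 60 members at or above 95% and 10 under 80%. The fit called 2.82% of 39616 transcripts with light in the mixture experiment and 5.12% of 42122 in the single-drug experiment, and 4 of 241 and 6 of 254 transcripts of the members. The coding transcript Cox7a2l-201 was lower in both (-0.43 ± 0.08, adjusted p = 0.0125, and -0.57 ± 0.09, adjusted p = 0.00139, edgeR), as was the coding transcript Ndufb8-001 (-0.40 ± 0.08, adjusted p = 0.0282, and -0.42 ± 0.10, adjusted p = 0.0292). Ndufa10-001, also coding, was called in the single-drug experiment (-0.73 ± 0.19, adjusted p = 0.0392).

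Cox7a2l-201 was higher with every drug than after light alone, as the gene's sum was. The log2 fold change was 0.47 with BMT (adjusted p = 0.00737, edgeR), 0.40 with MDB (adjusted p = 0.0241), 0.49 with BRM (adjusted p = 0.0125), 0.45 with MTP (adjusted p = 0.0184), 0.41 with TAM (adjusted p = 0.0269) and 0.48 with DOX (adjusted p = 0.0184). The fit called 3.11% of all transcripts with BMT, 1.92% with MDB, 1.87% with BRM, 1.49% with MTP, 1.56% with TAM and 1.28% with DOX. The drugs of an experiment share its light libraries, so these values are not independent of each other.

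Ndufc1, an accessory subunit of complex I, had 1 coding transcript that was nearly empty in the TAM group. Ndufc1-004 is 315 bases long (chr3:51405582-51408964, minus strand), and all of its bases are shared with Ndufc1-001. Its counts therefore rest on how the authors' eXpress run assigned fragments that match both transcripts, and the part of that assignment in the low value was not tested. It had 0.177, 0.024 and 0.0708 CPM in the 3 TAM libraries, and between 8.23 and 32.4 CPM in each of the other 27 libraries. In the fit of single transcripts it was lower with TAM than after light alone (adjusted p = 5.47e-05, edgeR) and was the only 1 of 42122 transcripts called between TAM and no light (adjusted p = 1.69e-05), which is 0.00237% of them. The second call was lost with voom (adjusted p = 0.868), and both held with any library left out. The gene's sum had 37.7, 34.9 and 43.0 CPM with TAM and 40.6, 45.1 and 49.3 after light, and was not called (-0.22, adjusted p = 0.239). In the authors' deposited table of the single-drug experiment, Ndufc1-004 is the 1 transcript of these genes among 622, with a log2 fold change against light of -6.95 for TAM and of 0.34 to 0.89 for the other groups. In the authors' deposited table of the mixture experiment none of 521 transcripts belongs to these genes.

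The second question was how the subunit genes stood in retinas exposed after a drug. Among the members, every call against the light group was an increase, 20 members were called higher with at least 1 drug, and Cox7a2l was the 1 member called with all 6. The groups of an experiment were compared with the same 3 light libraries. The shares of all genes called higher with at least 1 drug or with all 6 were not counted, so these counts are not read as particular to the members. With BMT, 11 of 82 members (13.4%) were higher and none was lower, where 7.96% of all genes were higher. The median over the members was 0.16 (all genes -0.018), and 53 members (64.6%) were above 0. Without overlap between groups, 31 members were higher and 10 lower, where 17.2% and 21.9% of all genes were. Complex I held 6 of the 11, complex III 2, complex IV 1 and ATP synthase 2.

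Cox7a2l had 140, 131 and 161 CPM with BMT, above all 3 light libraries (0.46 ± 0.07, adjusted p = 0.00165, edgeR). Ndufa10 had 120, 113 and 142 CPM (0.54 ± 0.10, adjusted p = 0.00372) and Atp5b 1160, 1160 and 1310 CPM (0.31 ± 0.08, adjusted p = 0.0233). Both overlapped the unexposed libraries. Uqcrh, the hinge protein of complex III, had 194, 206 and 258 CPM with BMT and 142, 148 and 174 after light (0.51 ± 0.13, adjusted p = 0.0236), and Uqcrfs1 rose to 93.2 from 79.5 CPM (adjusted p = 0.0321). Ndufa4, Ndufb2, Ndufs3, Ndufb8 and Atp5c1 were called too, with adjusted p from 0.0333 to 0.0448. Ndufs1 (0.31, adjusted p = 0.0504) and Sdha (0.23, adjusted p = 0.0568) were just outside the threshold, and Ndufv1, Cox4i1, Cox5a, Uqcrc1, Sdhb and Atp5a1 were not called (adjusted p of 0.905, 0.904, 0.134, 0.162, 0.358 and 0.108). BMT replicate 3 stood apart from its group with the largest share of counts on the members of all libraries (0.999%). Without it 2 members were called, as without light replicate 1, and 3 without light replicate 2, while 22 were without no light replicate 1 and 21 without no light replicate 2. DESeq2 called 27, and a fit with the lens-fibre score 22, and the shares of all genes called in those fits are not reported here. The calls of Ndufa10, Ndufb2 and Ndufs3 were lost with the deposited FPKM and with protein-coding transcripts alone (Ndufa10 at 0.71 in both), that of Atp5c1 with the deposited FPKM, that of Uqcrfs1 with an offset for the GC content of genes and that of Ndufb8 with no filter on low counts. Of 12 fits with a library left out, 4 kept the call of Atp5c1, 5 that of Ndufs3 and 5 that of Ndufb8.

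With MDB, 1 of 82 members (1.22%) was higher, Cox7a2l, where 3.70% of all genes were. Its CPM was 136, 141 and 137, above the light libraries (0.40 ± 0.07, adjusted p = 0.00496). Although only 1 was called, 63 members (76.8%) were above 0, against 50.4% of all genes, at a median of 0.08 (all genes 0.0022). Atp5b had 985, 1100 and 1020 CPM with MDB (0.08, adjusted p = 0.633), which overlapped the light libraries, as Ndufb8 did at 83.9, 87.6 and 96.3 CPM. Ndufa10 had 101, 107 and 106 CPM, above all light libraries, and was not called. Of the core pairs of the 5 complexes, Uqcrc1 came nearest to the threshold (-0.13, adjusted p = 0.158), and the others had adjusted p from 0.46 to 0.942. The largest fold change was that of Ndufa4l2 (1.21, adjusted p = 0.217), at levels of at most 1.84 CPM. The count was 2 without BMT replicate 1 or no light replicate 2, and 3 without BMT replicate 3 or MDB replicate 2.

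With BRM, 8 of 81 members (9.88%) were higher, where 7.08% of all genes were, and the median was 0.11 (all genes 0.0006). Cox7a2l had 137, 134 and 136 CPM against 94.2, 90.6 and 102 after light (0.51 ± 0.08, adjusted p = 0.00181). The other called genes included the small accessory subunits Ndufa11, Ndufb7, Ndufs5 and Uqcr11, and all 8 lay above every light library. Ndufs7, the core subunit with the last iron-sulfur cluster before ubiquinone (ENSMUSG00000020153, chr10:80249121-80256794), had 37.9, 46.2 and 45.2 CPM with BRM and 23.6, 18.1 and 31.1 after light (0.83 ± 0.25, adjusted p = 0.0386). Ndufa11 had 29.7, 34.4 and 35.4 CPM against 20.1, 14.3 and 24.5 (0.76 ± 0.20, adjusted p = 0.0214). Ndufb7 had 40.6, 46.2 and 44.5 CPM against 24.2, 18.7 and 32.6 (0.80 ± 0.24, adjusted p = 0.0379). Uqcr11, the smallest complex III subunit, had 45.0, 44.3 and 51.1 CPM against 20.1, 15.5 and 36.9 (0.95 ± 0.30, adjusted p = 0.0433). Ndufs5 (adjusted p = 0.0373), Ndufv1 (98.9 against 76.6 CPM; adjusted p = 0.0485) and Atp5sl (adjusted p = 0.0329) completed the list. Atp5b (0.11, adjusted p = 0.372), Atp5a1 (0.14, adjusted p = 0.221), Sdha (0.06, adjusted p = 0.564), Cox4i1 (0.25, adjusted p = 0.127) and Cox5a (-0.06, adjusted p = 0.675) were not called, nor were Ndufs1, Sdhb, Uqcrc1 and Uqcrfs1 (adjusted p of 0.935, 0.793, 0.293 and 0.518). Calls were few without light replicate 1 (2), light replicate 2 (1), BRM replicate 1 (2), BRM replicate 2 (1) or BRM replicate 3 (1), and 17 without light replicate 3. The call of Ndufs7 was lost with the deposited FPKM (1.45) and with protein-coding transcripts alone (1.43), as was that of Atp5sl. The calls of Ndufb7, Ndufs5 and Uqcr11 were lost with the lens-fibre score as a covariate, and those of Ndufv1 and Atp5sl with the GC offset. That of Ndufv1 was kept in 6 of 18 fits with a library left out.

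With DOX, 10 of 81 members (12.3%) were higher, where 6.79% of all genes were, and the median was 0.12 (all genes -0.031). Cox7a2l was at 142, 132 and 126 CPM (0.48 ± 0.08, adjusted p = 0.00353). Ndufv1 had 113, 106 and 98.4 CPM, above all light libraries (0.47 ± 0.12, adjusted p = 0.0206), and so did Ndufb8 at 103, 97 and 100 CPM (0.38 ± 0.10, adjusted p = 0.0237). Ndufs7 had 48.4, 54.8 and 38.1 CPM (0.96 ± 0.25, adjusted p = 0.0246), Ndufa11 36.5, 38.6 and 26.1 CPM (0.78 ± 0.20, adjusted p = 0.0226), and Uqcrc1 167, 153 and 139 CPM (0.28 ± 0.08, adjusted p = 0.035). Those 3 also lay above every light library, whereas Ndufb7 (adjusted p = 0.0366) and Cox6a1 (adjusted p = 0.0369) overlapped the light group. Ndufa10 (109 against 89.9 CPM) was called at an adjusted p of 0.0486, and Atp5sl at 0.03. The call of Ndufa10 was kept in 3 of 18 fits with a library left out, and was lost with a replicate block. The core pairs Sdha and Sdhb, Cox4i1 and Cox5a, and Atp5a1 and Atp5b were not called (adjusted p from 0.107 for Atp5a1 to 0.929 for Cox5a), nor were Ndufs1 (-0.15, adjusted p = 0.332) and Uqcrfs1 (0.05, adjusted p = 0.621). The count was 1 without DOX replicate 1 or light replicate 2, 2 without light replicate 1, 5 without DOX replicate 2 and 21 without light replicate 3. The calls of Ndufs7 and Cox6a1 were lost with the deposited FPKM and with protein-coding transcripts alone, those of Uqcrc1 and Atp5sl with the deposited FPKM, that of Atp5sl also with the GC offset, and that of Ndufa10 with the lens-fibre score.

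With TAM, 5 of 81 members (6.17%) were higher, where 6.60% of all genes were. The share of called members was that of all genes, at a median of 0.07 (all genes -0.022). Cox7a2l had 132, 115 and 142 CPM (0.44 ± 0.08, adjusted p = 0.00372), Ndufa10 119, 101 and 135 CPM (0.39 ± 0.08, adjusted p = 0.00807) and Atp5b 1150, 1100 and 1280 CPM (0.26 ± 0.08, adjusted p = 0.0411). Each of these lay above the light libraries. Ndufa4 (433 against 332 CPM; adjusted p = 0.0493) was also called. The remaining core-pair genes had adjusted p from 0.113 (Sdha, at 0.17) to 0.903 (Uqcrfs1). The count was 1 without TAM replicate 3, 2 without TAM replicate 1, light replicate 1 or light replicate 2, and 3 without BRM replicate 1, BRM replicate 2, MTP replicate 3, no light replicate 1 or no light replicate 2. The calls of Atp5b and Ndufa4 were lost with no filter on low counts, and that of Ndufa4 also with the deposited FPKM. Of 18 fits with a library left out, 7 kept the call of Atp5b and 4 that of Ndufa4.

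With MTP, 2 of 81 members (2.47%) were higher, where 5.37% of all genes were. They were Cox7a2l at 143, 131 and 120 CPM (0.46 ± 0.08, adjusted p = 0.00315) and Ndufa10 at 118, 107 and 115 CPM (0.33 ± 0.08, adjusted p = 0.0212). Atp5b (0.20, adjusted p = 0.115) and Sdha (0.17, adjusted p = 0.103) also lay above all light libraries and were not called, and the remaining core-pair genes had adjusted p from 0.103 (Ndufv1, at 0.32) to 0.911 (Uqcrfs1). Here, too, 62 members (76.5%) were above 0, against 49.2% of all genes, at a median of 0.10 (all genes -0.005). The count was 1 without MTP replicate 1, MTP replicate 3, light replicate 1 or light replicate 2, and 5 without light replicate 3. The call of Ndufa10 was lost with the lens-fibre score (0.28), the deposited FPKM (0.54) and protein-coding transcripts alone (0.57), which left Cox7a2l as the 1 call.

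No member was called between a drug group and the unexposed group of its experiment in edgeR's test, and no gene at all (0.0% in each of the 6 comparisons). At an unadjusted p under 0.05 the members numbered 3 with BMT, 10 with MDB, 10 with BRM, 1 with MTP, 6 with TAM and 2 with DOX. All genes at that level numbered 1009, 1642, 2535, 1395, 1327 and 2110, and DESeq2 called 13, 22, 381, 3, 7 and 11 genes and no member. A missed threshold does not show that the levels were equal. With MDB, Ndufb8 was at -0.30 ± 0.09 relative to no light (unadjusted p = 0.0068, adjusted p = 0.48) and Atp5b at -0.19 ± 0.08 (unadjusted p = 0.0374, adjusted p = 0.48). With BRM, Ndufa10 was at -0.28 ± 0.08 (unadjusted p = 0.00486, adjusted p = 0.169). The median of the members was -0.0036 with BMT, -0.07 with MDB, -0.06 with BRM, -0.08 with MTP, -0.08 with TAM and -0.03 with DOX.

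Among the members, the fold changes moved with the GC content that the tables list for each gene, and the direction differed between the experiments. In the mixture experiment the Pearson correlation of the light fold change with GC content over 82 members was 0.399, and in the single-drug experiment it was -0.333 over 81 (0.096 and -0.072 over all genes). The 7 members of at least 54% GC had a median of 0.18 in the mixture experiment, while the 15 below 42% had one of -0.17. The medians of the same bins in the single-drug experiment were -0.24 and -0.01. With BRM and DOX the correlations over the members were 0.537 and 0.449, with BMT -0.468. These are descriptions across genes that share libraries and library preparation. Ndufs7, Ndufb7 and Ndufa11, of 53.5%, 54.5% and 56.2% GC, had log2 fold changes with light of -0.07, 0.18 and -0.04 in the mixture experiment and -0.67, -0.65 and -0.56 in the single-drug experiment, and were called in neither.

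Single libraries also leaned with GC content over all genes, by a slope of log2 CPM deviation per 10 percentage points of GC. The slope was -0.248 in no light replicate 1 of the mixture experiment and -0.252 in BMT replicate 3. In the single-drug experiment it was -0.138, -0.19 and 0.0968 in the light libraries, 0.13, 0.117 and 0.149 in the BRM libraries and 0.233 in DOX replicate 2. With a GC offset for each library, an alternative chosen after seeing the data, the calls numbered 8 and 18 with light, 15 with BMT, 2 with MDB, 7 with BRM, 5 with MTP, 9 with TAM and 13 with DOX. All 6 calls with light in the mixture experiment and 14 of the 15 in the single-drug experiment were kept. The shares of all genes called with the offset are not reported here.

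**Figure D4:**
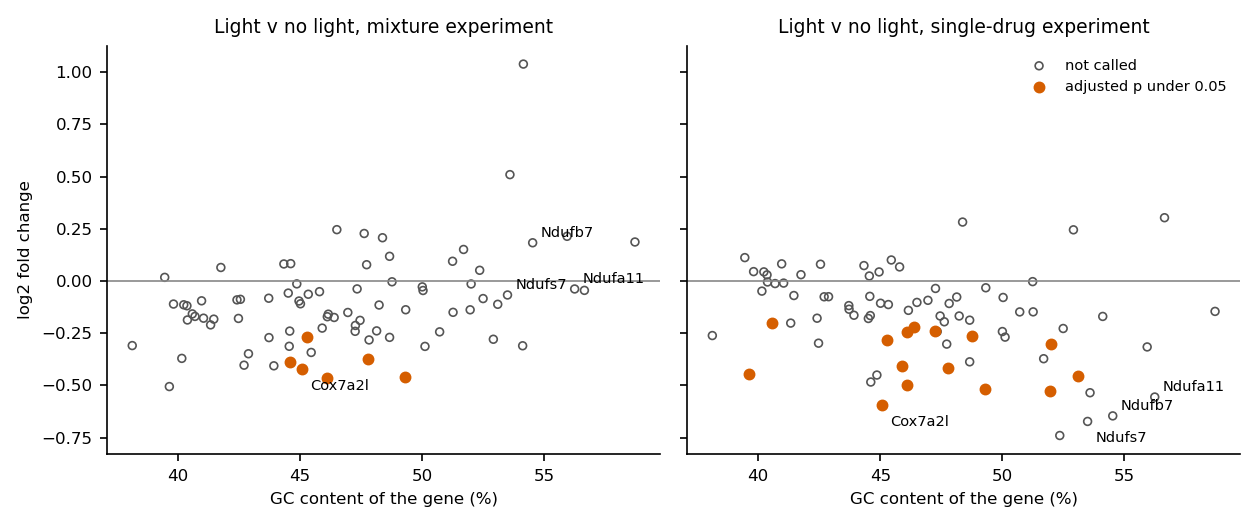
Log2 fold change of light against no light for each subunit gene by the GC content listed for the gene, with the mixture experiment on the left, the single-drug experiment on the right, and filled points at an adjusted p under 0.05. Over the members the correlation is 0.399 on the left and -0.333 on the right, and Cox7a2l is low in both (-0.42 and -0.59).

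Other genes of the pathway, in lists that were chosen with earlier results of these data known, gave these counts. They are read against all genes tested, of which 7.75% were higher and 5.47% lower with light in the mixture experiment, and 11.4% and 12.6% in the single-drug experiment. Of 45 tested genes for cytochrome c, cytochrome c1 and assembly factors, 1 was higher and 2 lower with light in the mixture experiment, and 1 higher and 4 lower in the single-drug experiment. Lrpprc, which stabilizes mitochondrial mRNA, was lower in both (-0.39, adjusted p = 0.0148, and -0.56, adjusted p = 0.000159), as was Sdhaf1, an assembly factor of complex II (-0.41, adjusted p = 0.0186, and -0.44, adjusted p = 0.00283). Ndufaf6, an assembly factor of complex I, was higher in both (1.05, adjusted p = 0.00276, and 0.74, adjusted p = 0.0337). Of 16 genes of pyruvate dehydrogenase and the citrate cycle, none was called in the mixture experiment by edgeR (1 at an unadjusted p under 0.05), and 1 was lower and none higher in the single-drug experiment.

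Of 16 regulators of mitochondrial biogenesis, 2 were higher and 4 lower with light in the mixture experiment, and 3 higher and 5 lower in the single-drug experiment. The coactivator genes Ppargc1a (-0.40, adjusted p = 0.00475, and -0.62, adjusted p = 0.000863) and Ppargc1b (-0.96, adjusted p = 0.00615, and -1.85, adjusted p = 0.000158) were lower in both. So were the receptor genes Esrrb (-0.77, adjusted p = 0.000161, and -1.495, adjusted p = 4.87e-05) and Esrrg (-0.45, adjusted p = 0.00026, and -0.36, adjusted p = 0.00645). Pprc1, a relative of Ppargc1a, was higher in both (0.77, adjusted p = 0.00298, and 0.57, adjusted p = 0.0337). Of the 13 protein genes of the mitochondrial genome, which encode the core of complexes I, III, IV and ATP synthase, none was called in the mixture experiment by edgeR (2 at an unadjusted p under 0.05), at a median of -0.26. In the single-drug experiment 4 were lower at a median of -0.27, namely mt-Nd4, mt-Nd4l, mt-Nd5 and mt-Cytb, with adjusted p from 0.00768 to 0.0148. With BMT, 7 of the 13 were higher at a median of 0.45 (7.96% of all genes were higher). As a share of counts, the 13 genes took 6.93%, 7.03% and 8.72% in the BMT libraries, most in replicate 3. That share was 6.21% to 6.41% after light and 6.05% to 7.35% without light. Calls of the 13 genes with the other drugs are not reported here.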

How the data were processed

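Neural retina of 30 mouse libraries in 10 groups was analysed from the deposited tables of 2 experiments. Per the submitters' processing notes the authors used Trimmomatic, Bowtie2, TopHat2, eXpress, edgeR, limma and GRCm38.p3; their versions are not stated in the sources. Expected counts per transcript are as deposited by the authors from eXpress, fractional and not normalized. FPKM values are as deposited by the authors in 2 forms, from eXpress and scaled by TMM. The tables of changed transcripts hold the authors' log2 fold changes against light and the adjusted p-value of the authors' F test over groups.

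For each gene, expected counts of its transcripts were added up and rounded. After filterByExpr (default settings) and TMM scaling, each experiment was fitted with all its groups in edgeR 4.0.16 (quasi-likelihood test, two-sided, R 4.3.3), with Benjamini-Hochberg adjustment over all genes tested in each of 15 comparisons. Calls are at an adjusted p under 0.05. One of these fits used both experiments, for the difference between their light effects. The depth of 12.0 to 25.8 M counts per library sets the precision, which the standard errors carry. CPM use the TMM-scaled library size. The scripts were tested on simulated data.

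The members and the lists were chosen with earlier results of these data known. Genes named in each comparison were a core pair per complex (Ndufs1 and Ndufv1, Sdha and Sdhb, Uqcrc1 and Uqcrfs1, Cox4i1 and Cox5a, Atp5a1 and Atp5b), the alternative isoforms or a subset of them, and per comparison the 6 called members with the smallest adjusted p; other genes were named after their values were seen. Some genes are not reported here. The alternatives were DESeq2 1.42.0, RLE size factors, all genes unfiltered, voom of limma 3.58.1, log2 of the deposited scaled FPKM plus 1, a lens-fibre score as covariate, a replicate block and each library left out. Protein-coding transcripts alone, a GC offset and fits of single transcripts were added after seeing the data. Replicate numbers were shared between groups, and were checked for pairing as given in the closing section. Promoters came from RefSeq tables and motifs were searched as exact letters in Python 3.11.15.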

Additional observations from a re-analysis of the deposited data

How the results depend on the processing

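Among the 8 comparisons of light or drug, no named gene that was called turned its direction under any alternative, and Cox7a2l was called under every alternative and with any library left out. The counts of called members moved more. In the mixture experiment, light called 6 members; DESeq2 called 13, the lens-fibre covariate 18, the deposited FPKM 3 and protein-coding transcripts alone 3. BMT called 11 (27 with DESeq2, 22 with the lens-fibre covariate). MDB called 1 (4 with DESeq2, 2 with the GC offset, 5 with the lens-fibre covariate, 2 with voom). BRM called 8 (15 with DESeq2). MTP called 2 (9 with DESeq2, 5 with the GC offset, 1 each with the deposited FPKM, the lens-fibre covariate and protein-coding transcripts alone). TAM called 5 (9 each with DESeq2 and the GC offset, 3 with no filter), and against no light 0, with 1 under the deposited FPKM and 1 with protein-coding transcripts alone. DOX called 10 (22 with DESeq2, 17 with RLE size factors, 16 with voom). The cause was not tested. For light and for drugs against light, the numbers of all genes called under these alternatives, or with a library left out, are not reported here. A larger count of members is therefore not read as a stronger response of the members.

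With 1 library left out, the counts ranged from 1 to 14 for light in the mixture experiment, 7 to 23 for light in the single-drug experiment, 2 to 22 for BMT, 1 to 3 for MDB, 1 to 17 for BRM, 1 to 5 for MTP, 1 to 6 for TAM and 1 to 21 for DOX, and called member transcripts with light from 0 to 6 and from 2 to 7.

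Same-numbered libraries did not deviate together in every pair. Their correlations ran from -0.216 to 0.556 in the mixture experiment, over 0.1 in 2 of 18 pairs. In the single-drug experiment they ran from -0.262 to 0.437, over 0.1 in 13 of 45 pairs. The main fits therefore did not use the numbers as pairs. Only same-numbered pairs were looked at, so this check cannot show that no libraries were paired. With a replicate block the counts were 5 and 16 for light, 8 for BMT, 3 for MDB, 4 for BRM, 2 for MTP, 5 for TAM and 7 for DOX, and 3 and 6 member transcripts with light. The BRM calls of Ndufb7, Ndufs5, Ndufs7, Ndufv1 and Uqcr11 were lost with the block. Isoforms of under 1 CPM rest on few counts.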

Other observations

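The cytosolic ribosomal protein genes are also short and abundant, and 80 of them were tested. With light 3 were higher and none lower in the mixture experiment (median 0.13), and 10 were higher and none lower in the single-drug experiment (median -0.01), where 7.75% and 11.4% of all genes were higher. With DOX 12 were lower and none higher (5.06% of all genes were lower), at a median of 0.06, and with BRM 9 were lower and none higher (7.32% of all genes were lower), at a median of 0.04.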
